A study of Mus musculus with 9 samples.

Results

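Igf2, Clic6 and 8 further genes of the choroid plexus (Ttr, Otx2, Kl, Folr1, Aqp1, Kcnj13, Prlr and Enpp2) were followed through 9 RNA libraries of the embryonic mouse forebrain. These 10 genes of the 53379 gene identifiers in each table were chosen by name, mapped to mouse symbols on build GRCm38 (mm10), with their levels in the 3 groups already known. Their levels and fitted differences are therefore given as a description, and no p-value of theirs is used as evidence. The sorted cells, GFP-positive and labelled as neural progenitor cells, came from C57Bl6DBa2 embryos that received plasmids by in utero electroporation at E14.5 and were collected at E16.5, 2 days later. The 3 groups of 3 libraries received a pCAGGS plasmid coding for GemC1, a plasmid coding for Mcidas (its vector is spelled pCAAGS in the labels), or the H2B-GFP reporter, which supplies the GFP of the sort. The pCAGGS vector carries a strong promoter active in most cell types, so the promoter itself does not limit expression to a cell type. Which cell types held the plasmids was not tested. The series set out to learn how GemC1 starts the multiciliated cell fate. The labels name no strain difference, allele or further agent between groups, and they do not say whether each GFP-positive cell of a factor group also held the factor's plasmid, or whether replicates came from separate embryos or litters.

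The choroid plexus is a vascular fold in each brain ventricle whose epithelial cells carry tufts of motile cilia and secrete cerebrospinal fluid. This epithelium arises from the dorsal midline, next to the cortical hem, under Otx2 and Lmx1a, and it makes the carrier protein transthyretin (Ttr), the ageing-related protein Klotho (Kl), the folate receptor Folr1 and the growth factor Igf2, which enters the fluid and reaches progenitor cells at the ventricle. GemC1 (gene symbol Gmnc) and its relative Mcidas are nuclear proteins that switch on the genes of multiciliated cells, and both the choroid plexus and the ependyma, the ciliated lining of the ventricles, carry such cells.

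Igf2 and Clic6 were the members with clearly higher levels in both factor groups than with the reporter, while the transthyretin, Klotho, folate receptor and prolactin receptor genes stayed near 0 counts in every library. Enpp2 and Kcnj13 were present in all 9 libraries, with overlapping values in each factor group and the reporter group. In counts scaled to a common library total (CPM, after TMM scaling), the summed level of the 10 genes was 16.1 to 25.1 with GemC1, 17.1 to 27.3 with Mcidas and 9.85 to 16.49 with the reporter. Of the 10 genes, 4 (Igf2, Clic6, Kcnj13 and Enpp2) passed the filter on low counts, and the other 6 stayed under 1 CPM in every library.

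The libraries held between 22914704 counts (Mcidas replicate 3) and 41163917 counts (GFP replicate 2), so that 3 counts, the limit that a count of 0 allows, corresponded to 0.0729 to 0.131 CPM before scaling. Gmnc was at 223 to 317 CPM with GemC1, at most 0.26 with Mcidas and at 0 counts with the reporter. Mcidas itself was at 388 to 597 CPM where its plasmid was given, 60.2 to 76.8 with GemC1 and 0.647 to 0.69 with the reporter. Mcidas replicate 1 stood apart from the other 2 of its group, with the lowest Foxj1 of that group (95.8 CPM against 170 and 183), and the results that rest on it are given with and without it. The label of progenitor cells was set against marker genes: all 15 progenitor markers passed the filter and summed to 1804 to 2874 CPM, but 10 markers of cortical neurons summed to 3818 to 5334 CPM in the same libraries.

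Promoters of the growth factor gene are shown first, because Igf2 is the secreted signal among the members and has several alternative starts. RefSeq's table for GRCm38.p6 had an entry for 6 of the 10 members, with 14 windows of 250 bases before a start and 4 of these for Igf2. The first Igf2 window printed is the most distal of the 4, and the second is the most downstream; neither overlaps an annotated exon, and capitals mark the GC box GGGCGG, a letter string of promoters rich in G and C.

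Igf2 distal start, chr7:142666817-142667066, minus strand: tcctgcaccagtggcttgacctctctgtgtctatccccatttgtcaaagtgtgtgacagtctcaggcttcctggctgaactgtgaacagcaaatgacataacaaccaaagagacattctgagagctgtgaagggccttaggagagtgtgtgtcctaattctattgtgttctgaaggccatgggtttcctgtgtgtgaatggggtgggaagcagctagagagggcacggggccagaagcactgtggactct
Igf2 proximal start, chr7:142657497-142657746, minus strand: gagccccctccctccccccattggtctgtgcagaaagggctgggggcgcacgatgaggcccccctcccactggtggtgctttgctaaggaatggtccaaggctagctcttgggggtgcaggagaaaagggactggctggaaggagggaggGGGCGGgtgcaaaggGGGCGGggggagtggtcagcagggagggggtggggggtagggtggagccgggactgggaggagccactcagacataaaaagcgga

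The distal window held none of the 7 motifs searched, and the proximal window held 2 GC boxes, at 100 to 95 and 85 to 80 bases before the start. Each motif was searched on both strands. The string GGGCGG stood in 4 of the 14 member windows (Aqp1, Kl and 2 windows of Igf2) and in 32.7% of all 32851 windows of the same length. The full X-box, the motif bound by RFX factors at many genes of cilia, stood in 0 of the 14 windows and in 0.374% of all windows. Its half-site GTTGCC stood in 3 windows (Aqp1 and 2 overlapping windows of Otx2) against 10.4% of all. The forkhead string GTAAACA stood in 1 window, of Prlr, against 3.17% of all, and the OTX string GGATTA in 1 window, of Otx2, against 6.25%. The TATA string TATAAA was found in 2 windows, of Kcnj13 and Otx2, against 12.4%, and the E2F string TTCCCGC in 0, against 3.82%. Such matches describe letters only.

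Igf2 codes for insulin-like growth factor 2, a fetal growth factor made from the paternal allele in most tissues, and lies on chromosome 7 from 142650766 to 142666816 on the minus strand (ENSMUSG00000048583). Its read counts were 76, 58 and 89 in GemC1 replicates 1 to 3, 8, 90 and 49 in Mcidas replicates 1 to 3, and 2, 5 and 3 in GFP replicates 1 to 3. As levels these were 2.68, 1.96 and 2.93 CPM with GemC1, 0.23, 2.74 and 2.12 CPM with Mcidas, and 0.0588, 0.123 and 0.09 CPM with the reporter. All 6 factor libraries lay above all 3 GFP libraries, but Mcidas replicate 1 was much closer to the GFP libraries than to the other Mcidas libraries.

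The mean Igf2 level was 2.52 ± 0.50 CPM with GemC1, 1.70 ± 1.31 with Mcidas and 0.0905 ± 0.032 with the reporter (SD, n = 3 libraries each). The log2 fold change over the reporter was 4.72 (SE 0.78) for GemC1 and 4.14 (SE 0.78) for Mcidas. From summed counts, 223 against 10 for GemC1, the level was 28.2 times that of the GFP libraries, with a counting interval (95%, exact) of 15.03 to 59.5. For Mcidas, 147 counts against 10 gave 18.0 times, with an interval of 9.53 to 38.4. Without Mcidas replicate 1 the Mcidas mean was 2.43 CPM and its log2 fold change over the reporter 4.68. Between the factors Igf2 differed by a log2 fold change of 0.58 (SE 0.61), and by 0.05 without Mcidas replicate 1.

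The locus limits what can be said of Igf2 alone. The predicted gene Gm49394 shares 16048 bases of the same strand with Igf2, and its counts ran in parallel: 69, 56 and 82 with GemC1, 7, 89 and 41 with Mcidas, and 10, 5 and 6 with the reporter. How reads lying in both genes were counted is not given in the sources used here, so the reads of these genes cannot be told apart and the Igf2 counts may hold part of the locus's reads. Igf2os, on the opposite strand, had 0, 0 and 0 counts with GemC1, 0, 2 and 1 with Mcidas and 9, 0 and 6 with the reporter. Because the library kits do not mark strand, sense and antisense reads there are not separated either.

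Clic6, a chloride intracellular channel gene known for high levels in secretory epithelia such as the choroid plexus, lies on chromosome 16 from 92485736 to 92541243 on the plus strand (ENSMUSG00000022949). It had 253, 72 and 157 counts with GemC1, 89, 224 and 153 with Mcidas, and 0, 0 and 11 with the reporter. These were 8.92, 2.44 and 5.16 CPM with GemC1, 2.56, 6.82 and 6.63 CPM with Mcidas, and 0, 0 and 0.33 CPM with the reporter. The lowest factor library, GemC1 replicate 2, was above the one GFP library with any Clic6 read, so the groups did not overlap.

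Mean Clic6 was 5.51 ± 3.25 CPM with GemC1, 5.34 ± 2.40 with Mcidas and 0.11 ± 0.19 with the reporter. The log2 fold change was 5.68 (SE 0.90) for GemC1 and 5.63 (SE 0.90) for Mcidas, and 0.05 (SE 0.64) between the factors. Summed counts of 482 and 466 against 11 gave 55.4 times (30.7 to 112) and 52.0 times (28.8 to 105) the level of the GFP libraries. All 11 GFP counts came from replicate 3. Against the other 2 GFP libraries, set at the floor of 3 counts per library, mean unscaled Clic6 was 69.0 times the floor with GemC1 and 67.5 times with Mcidas. These ratios allow for counting error only, not for the spread between libraries. Without GFP replicate 3 the fitted log2 fold changes were 10.45 and 10.40, values that depend on the prior count because the remaining GFP libraries hold no read. Without Mcidas replicate 1 the Mcidas mean was 6.72 CPM.

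Of the 4 members that passed the filter, Igf2 and Clic6 were past the threshold of adjusted p under 0.05 in each factor against the reporter (edgeR quasi-likelihood test over all 19572 genes), and 0 of 4 between the factors. Without the low-count filter Clic6 was not past it in either comparison with the reporter. The background was 5.19% of all tested genes for GemC1 against GFP (3.86% higher, 1.32% lower), 4.35% for Mcidas against GFP (4.03% higher, 0.327% lower) and 0.0511% for GemC1 against Mcidas (0.0153% higher, 0.0358% lower). These contrasts chose the members, and Igf2 and Clic6 could pass the filter only through the groups in which they are high, so nothing is read from the count. Both comparisons use the same 3 GFP libraries.

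**Figure D1:**
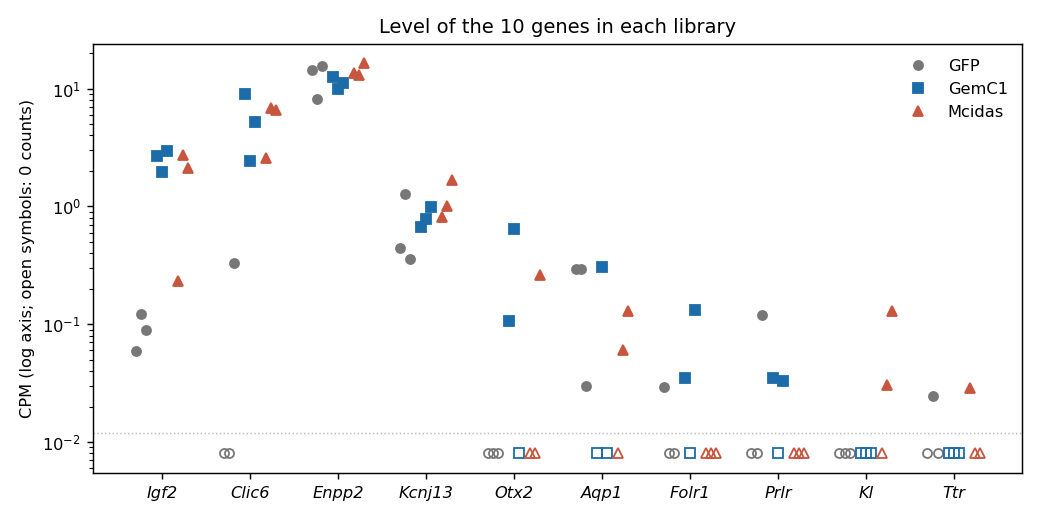
Level of each of the 10 genes in each library, as CPM on a log axis, with circles for GFP, squares for GemC1 and triangles for Mcidas libraries; open symbols under the dotted line are libraries with 0 counts. Igf2 and Clic6 are higher in the factor libraries (0.23 to 2.93 and 2.44 to 8.92 CPM) than in the GFP libraries, Enpp2 and Kcnj13 are seen in all 9, and the 6 other genes stay under 1 CPM.

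Enpp2 codes for autotaxin, the secreted enzyme that makes lysophosphatidic acid and a well-known product of choroid plexus epithelium. It was the member with the highest level per kilobase of exon in each group, at 1.94 CPM per kb with GemC1, 2.46 with Mcidas and 2.19 with the reporter. By library it stood at 12.6, 9.96 and 11.1 CPM with GemC1, 13.4, 12.9 and 16.3 CPM with Mcidas, and 14.4, 8.13 and 15.6 CPM with the reporter. The GFP libraries overlapped both factor groups, whereas the 3 GemC1 libraries lay below the 3 Mcidas libraries. The log2 fold change was -0.18 (SE 0.22) for GemC1 and 0.17 (SE 0.22) for Mcidas over the reporter, and -0.34 (SE 0.22) between the factors.

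Kcnj13, an inward rectifier potassium channel (Kir7.1) of transporting epithelia, had 19, 23 and 30 counts with GemC1, 28, 33 and 39 with Mcidas and 15, 52 and 12 with the reporter. GFP replicate 2, the deepest library, held the highest raw count, but in CPM Mcidas replicate 3 was highest (1.69 against 1.28), and the other 2 GFP libraries were the lowest on both scales. Mean levels were 0.812 ± 0.161, 1.17 ± 0.463 and 0.693 ± 0.508 CPM, with log2 fold changes over the reporter of 0.22 (SE 0.54) for GemC1 and 0.73 (SE 0.53) for Mcidas. Without GFP replicate 2 these were 1.02 and 1.54. Kcnj13 lies wholly within Gigyf2, on the opposite strand, and Gigyf2 had 2103 to 4176 counts per library, so unstranded reads of its introns cannot be told apart from Kcnj13 reads.

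Per kilobase of exon, the order in the GemC1 libraries was Enpp2 at 1.94 ± 0.232, Clic6 at 1.41 ± 0.831, Kcnj13 at 0.639 ± 0.127 and Igf2 at 0.441 ± 0.0873 CPM per kb, with the other 6 members at or under 0.0592. Each of these 4 overlapped its neighbour in that order within the spread (SD, n = 3). In the Mcidas libraries the order was Enpp2 at 2.46 ± 0.316, Clic6 at 1.36 ± 0.614, Kcnj13 at 0.919 ± 0.365 and Igf2 at 0.297 ± 0.229, and there Clic6 and Kcnj13 overlapped within their spread while the other neighbours did not. In the GFP libraries it was Enpp2 at 2.19 ± 0.69 and Kcnj13 at 0.545 ± 0.4, while Clic6 and Igf2 stood at 0.0281 and 0.0158 CPM per kb, under Aqp1 at 0.0785 ± 0.0581, with the spread of Clic6 overlapping that of Aqp1 and of Igf2.

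Among the remaining members, the transcription factor gene Otx2 had 3, 19 and 0 counts with GemC1, 0, 0 and 6 with Mcidas and 0 in each GFP library. The libraries with the most Otx2, GemC1 replicate 2 (0.644 CPM) and Mcidas replicate 3 (0.26 CPM), also held the most Lmx1a, another dorsal midline factor, at 0.508 and 0.736 CPM, and the most Rspo2, a Wnt agonist of the hem, at 0.44 and 0.693 CPM. Rspo2 was also at 0.39 CPM in GFP replicate 3, which had no Otx2 or Lmx1a read. This pattern by library was noticed after the values were seen.

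Aqp1, the water channel of the apical membrane, had 0, 9 and 0 counts with GemC1, 0, 2 and 3 with Mcidas and 10, 12 and 1 with the reporter. The highest libraries were thus GemC1 replicate 2 at 0.305 CPM and GFP replicates 1 and 2 at 0.294 and 0.295 CPM, so the groups overlapped. Ttr, among the most abundant transcripts of mature choroid plexus epithelium, had 1 count in Mcidas replicate 1, 1 count in GFP replicate 2 and 0 in the other 7 libraries. Kl had 4 counts in all, in Mcidas replicates 2 and 3. Folr1 had 5 counts with GemC1 and 1 with the reporter, and Prlr, the prolactin receptor, had 2 with GemC1 and 4 with the reporter. At this depth a difference between groups was not detectable for these 4 genes.

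Other genes of choroid plexus epithelium, a list of 53 that does not include the members, were called in 3.23% of those tested with GemC1, beside 5.19% of all genes, and in 9.68% with Mcidas, beside 4.35%. Of the 53, 31 passed the filter and 24 stayed under 1 CPM in every library. With GemC1, 1 of 31 rose and 0 fell, and the median log2 fold change of the 31 was 0.01, beside 0.00 over all tested genes. With Mcidas, 1 rose and 2 fell, where 4.03% of all genes were higher and 0.327% lower, with a median of 0.05 beside -0.03 over all genes. Without Mcidas replicate 1, 2 were higher and 1 lower in each comparison; 1 was also lower with GemC1 without GemC1 replicate 1 or Mcidas replicate 3. Between the factors 0 passed the test, with 11 of 31 under an unadjusted p of 0.05 and 1 called by DESeq2 (Car14).

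1500015O10Rik (also named Ecrg4), which codes for a secreted peptide precursor abundant in choroid plexus, was at 3.49, 4.17 and 5.72 CPM with GemC1, 2.25, 3.17 and 4.24 CPM with Mcidas, and 1.94, 1.45 and 1.05 CPM with the reporter. All 6 factor libraries were above the GFP libraries. With GemC1 it rose by 1.59 on the log2 scale (SE 0.33, adjusted p = 0.0151), and the value with Mcidas was 1.11 (SE 0.33, adjusted p = 0.101), or 1.33 (adjusted p = 0.041) without Mcidas replicate 1. The GemC1 call was lost without GemC1 replicate 3, GFP replicate 2 or GFP replicate 3, with adjusted p up to 0.0822.

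Car14, a membrane carbonic anhydrase, fell with Mcidas, from 9.17, 6.16 and 7.50 CPM with the reporter to 4.12, 3.50 and 2.99 CPM (log2 fold change -1.10, SE 0.23, adjusted p = 0.0125). The tight junction gene Cldn3 fell with Mcidas from 27.1, 28.1 and 28.9 CPM to 15.8, 17.1 and 21.4 CPM (log2 fold change -0.63, SE 0.13, adjusted p = 0.0147). Vat1l rose with Mcidas, from a mean of 2.15 to 4.16 CPM (log2 fold change 0.95, SE 0.25, adjusted p = 0.0481), and lost the call in 11 of 16 alternative fits, with adjusted p up to 0.198. Car14 lost its call without Mcidas replicate 2, Mcidas replicate 3 or GFP replicate 1 (adjusted p up to 0.0753), and Cldn3 without Mcidas replicate 1 or 2 or GFP replicate 2 or 3 (up to 0.0854).

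Some genes of that list had low levels, although 31 of the 53 passed the filter. Lmx1a averaged 0.224 CPM with GemC1, 0.265 with Mcidas and 0.0556 with the reporter, and Msx1 at most 0.049 in any group. Sostdc1, a secreted inhibitor made by young choroid plexus, averaged 0.0556, 0.455 and 0.357 CPM, and its fitted change was -2.59 on the log2 scale (SE 0.96, adjusted p = 0.154) for GemC1 and 0.34 (SE 0.79, adjusted p = 0.925) for Mcidas. Kcne2, Cldn2 and Tmem72, named after their values were seen, averaged at most 0.134 CPM in any group. The list's summed level, 713 to 748 CPM with GemC1, 668 to 688 with Mcidas and 693 to 766 with the reporter, comes largely from genes that neural cells also express, such as Mdk (185 to 231 CPM by group mean) and Igfbp2 (99.5 to 114).

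**Figure D2:**
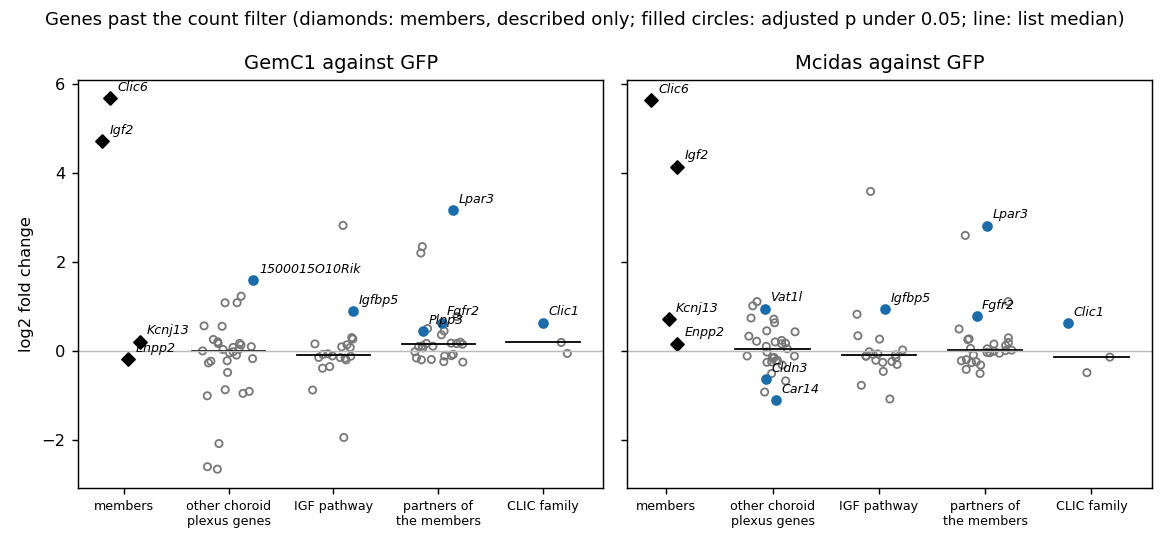
Log2 fold change over GFP of the genes that passed the count filter, by list, for GemC1 (left) and Mcidas (right); diamonds are the members, filled circles genes with adjusted p under 0.05, open circles the others, and lines the list medians. Clic6 and Igf2 lie above 4 in both panels, while the medians of the other choroid plexus genes are 0.01 and 0.05.

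Genes of the cortical hem and roof plate, where the choroid plexus arises, were tested next. Of 19 such genes 11 passed the filter, with Mcidas itself left out of the count as a plasmid gene. Ccno, a cyclin-like gene of centriole amplification, rose in both comparisons, from 2.72 CPM with the reporter to 74.7 with GemC1 and 93.9 with Mcidas (log2 fold change 4.79 and 5.12). The list of multiciliated genes, given below, holds Ccno too. The other 10 tested genes did not pass in either comparison. Calls were thus 9.09% of the hem genes tested, beside 5.19% of all tested genes with GemC1 and 4.35% with Mcidas. Wnt3a, Wnt8b, Lmx1b and Msx2 had 0 counts in all 9 libraries.

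Of the IGF pathway around Igf2, 1 of 20 tested genes passed in each comparison with the reporter, a share of 5% that is near the 5.19% and 4.35% of all tested genes. The median log2 fold change of the 20 was -0.09 for GemC1 and -0.10 for Mcidas. That gene was Igfbp5, a secreted IGF-binding protein. It stood at 37.9, 40.1 and 56.4 CPM with GemC1, 44.4, 47.9 and 45.9 CPM with Mcidas, and 24.6, 26.7 and 20.96 CPM with the reporter. On the log2 scale Igfbp5 rose by 0.90 (SE 0.15, adjusted p = 0.00348) with GemC1 and 0.94 (SE 0.15, adjusted p = 0.00198) with Mcidas, and kept both calls in 16 of 16 alternative fits. Without GemC1 replicate 2, 3 genes of the pathway rose with GemC1.

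The receptors were abundant and did not pass the test. Igf1r, the signalling receptor of both IGFs, averaged 106, 103 and 121 CPM with GemC1, Mcidas and the reporter (adjusted p = 0.28 and 0.313 for the factors). Igf2r, which clears Igf2 from the cell surface, averaged 70.9, 74.7 and 79.2 CPM (adjusted p = 0.658 and 0.909). Insr, the insulin receptor, averaged 72.3, 72.1 and 79.7 CPM (adjusted p = 0.468 and 0.635). Igf1, the related ligand, was at 0.519, 0.585 and 0.575 CPM, with log2 fold changes of -0.14 (SE 0.86) and 0.03 (SE 0.85).

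H19, the maternally expressed RNA that shares an imprinting control region with Igf2 and lies 72.6 kb away, did not follow it in level. It was at 0.564, 3.62 and 2.96 CPM with GemC1, 2.91, 1.71 and 1.47 CPM with Mcidas, and 2.999, 1.97 and 2.58 CPM with the reporter. The groups overlapped, and the log2 fold change was -0.07 (SE 0.51, adjusted p = 0.961) and -0.30 (SE 0.51, adjusted p = 0.894). Of 20 imprinted growth genes 16 were tested, and 0 passed in either comparison with the reporter by edgeR or by DESeq2; 3 and 1 of them had an unadjusted p under 0.05, and 1 rose with GemC1 when GemC1 replicate 2 was left out.

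Within 500 kb of Igf2, 13 of 53 annotated genes were tested. Over all tested genes, 3.86% were higher with GemC1 and 4.03% with Mcidas. Gm49394 overlaps Igf2 and its reads cannot be told apart from those of Igf2, so its p-values are not used as evidence. With GemC1 the count past the threshold was 3, which includes Gm49394 (log2 fold change 3.55). The others, 263 and 268 kb away, were Ctsd, a lysosomal protease (0.39, adjusted p = 0.0166), and Gm49369 (0.42, adjusted p = 0.0279). Gm49369 overlaps Ctsd on the same strand, so they may share reads and are not counted as separate results. With Mcidas the count was 1, Gm49394 itself (2.96), so nothing is read from it. Without GFP replicate 2 or 3 each of these 4 calls was lost (adjusted p up to 0.0804 for Gm49394, 0.0946 for Ctsd and 0.138 for Gm49369 with GemC1). Gm49394 with Mcidas lost its call in 10 of 16 alternative fits, with adjusted p up to 0.22, and Ctsd and Gm49369 also lost theirs without GemC1 replicate 1, Gm49369 without GemC1 replicate 2 as well. Ins2, the insulin gene beside Igf2, had 0 counts in all libraries. Within 500 kb of Clic6, 6 of 13 genes were tested and 0 passed in either comparison by edgeR or DESeq2, with 1 under an unadjusted p of 0.05 in each. The nearest tested gene, Rcan1 at 14.9 kb, had log2 fold changes of -0.07 (SE 0.10) and -0.17 (SE 0.10).

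In the CLIC family 1 of the 3 tested relatives of Clic6 rose in each comparison with the reporter. Of all tested genes, 3.86% were higher with GemC1 and 4.03% with Mcidas. Clic1 was at 78.7, 76.6 and 78.0 CPM with GemC1, 73.8, 73.2 and 85.5 CPM with Mcidas, and 57.3, 43.5 and 48.9 CPM with the reporter. Its log2 fold change was 0.64 (SE 0.11, adjusted p = 0.00371) with GemC1 and 0.63 (SE 0.11, adjusted p = 0.00316) with Mcidas, and both calls stood in 16 of 16 alternative fits. Clic4, the most abundant, averaged 322, 304 and 334 CPM (adjusted p = 0.78 and 0.563), and Clic3 2.60, 1.61 and 2.26 CPM (adjusted p = 0.816 and 0.68). Clic5 had a mean of 0.0385 CPM with Mcidas and 0 counts elsewhere.

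Partners of the members, that is the receptors, enzymes and carriers that act with them, were given as a further list of 34 genes, of which 27 were tested. With GemC1, 3 rose and 0 fell (median log2 fold change 0.15), and with Mcidas 2 rose and 0 fell (median 0.02). These calls were 11.1% and 7.41% of the partners tested, beside 5.19% and 4.35% of all tested genes. The medians over all tested genes were 0.00 and -0.03. Fgfr2, a fibroblast growth factor receptor of the family for which Klotho is a co-receptor, rose from 71.0, 71.5 and 56.02 CPM with the reporter to 111, 97.1 and 101 CPM with GemC1 and 102, 116 and 127 CPM with Mcidas. Its log2 fold change was 0.64 (adjusted p = 0.00556) and 0.79 (adjusted p = 0.000832), while Klotho itself had 4 reads in all. Plpp3, a phosphatase that breaks down lysophosphatidic acid, rose with GemC1 (log2 fold change 0.45, adjusted p = 0.0146), and the value with Mcidas was -0.05 (adjusted p = 0.91). The difference in Plpp3 between the factors was called by DESeq2 and not by edgeR, and its GemC1 call was lost without GemC1 replicate 2 or GFP replicate 3 (adjusted p up to 0.0873).

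Lpar3, a receptor for the lysophosphatidic acid that autotaxin makes, showed the largest change among the partners called. It stood at 2.68, 3.05 and 3.19 CPM with GemC1, 0.576, 2.74 and 3.77 CPM with Mcidas, and 0.353, 0.442 and 0.18 CPM with the reporter. As with Igf2, Mcidas replicate 1 was the factor library nearest to the GFP libraries. On the log2 scale Lpar3 rose by 3.16 (SE 0.59, adjusted p = 0.00753) with GemC1 and 2.82 (SE 0.59, adjusted p = 0.0133) with Mcidas. The Mcidas call was lost in 4 of 16 alternative fits, without Mcidas replicate 2 or 3 or GFP replicate 1 or 3 (adjusted p up to 0.0731). Without Mcidas replicate 1 the Mcidas value was 3.30 (SE 0.40, adjusted p = 0.000159). The receptors Lpar1, Lpar2, Lpar4 and Lpar6 were tested and did not pass in either comparison.

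The promoter of Lpar3 is shown because this gene rose beside Igf2; its 250 bases hold 3 GC boxes, in capitals, the third on the opposite strand and so written CCGCCC.

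Lpar3 start, chr3:146220711-146220960, plus strand: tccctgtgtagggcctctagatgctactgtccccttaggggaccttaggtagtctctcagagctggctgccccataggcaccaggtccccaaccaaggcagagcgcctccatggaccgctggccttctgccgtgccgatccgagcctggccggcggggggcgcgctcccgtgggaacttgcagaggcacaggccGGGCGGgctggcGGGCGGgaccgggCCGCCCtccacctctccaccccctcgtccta

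**Figure D3:**
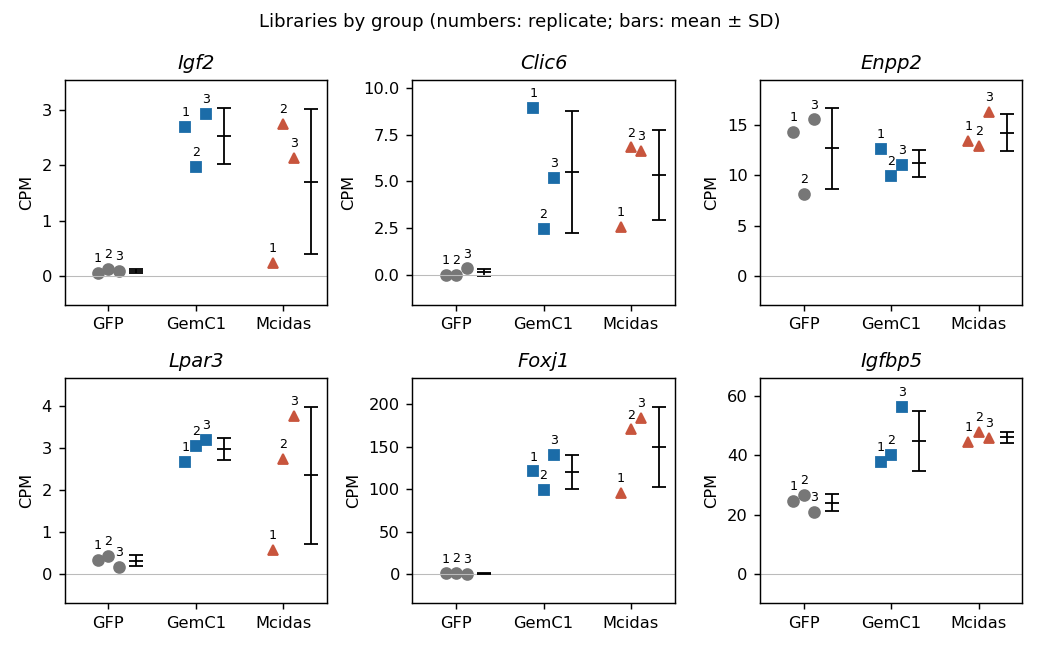
CPM in each library for Igf2, Clic6, Enpp2, Lpar3, Foxj1 and Igfbp5, with the replicate number above each point and the mean ± SD of 3 libraries as a bar beside each group. Mcidas replicate 1 is the lowest Mcidas library for Igf2, Clic6, Lpar3 and Foxj1, and Enpp2 overlaps between GFP and both factor groups.

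The genes whose levels ran most like those of Clic6, Igf2 and Enpp2 were found by the Pearson correlation of log2 CPM over the 9 libraries, among 11867 genes. For Igf2 and Clic6 this likeness mostly reflects the step between the GFP and the factor libraries, which share these 9 samples, and is a description. For Clic6 the closest genes were Drc7 (0.989), a subunit of the regulatory complex of ciliary dynein, and Arl6 (0.981), a small GTPase of cilia. Next came Ccdc87 (0.979), Xylb (0.979), a xylulose kinase, and Ugt1a6a (0.978), which shares exons with neighbouring Ugt1a genes. Drc7 stood at 7.40, 3.62 and 3.78 CPM with GemC1, 3.57, 12.0 and 10.3 CPM with Mcidas and 0, 0 and 0.24 CPM with the reporter, so that, as for Clic6, its GFP reads came from replicate 3.

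Igf2 had an average log2 CPM of 0.55, under the limit of 1 that the rule sets, and its closest genes were added after its values were seen. They were Hacl1 (0.974), an enzyme of peroxisomes, Gsta4 (0.973), a glutathione transferase, Cox6b2 (0.969), a subunit of cytochrome c oxidase, Tm4sf1 (0.965) and Scn4b (0.961), a sodium channel subunit. Scn4b averaged 4.56 CPM with GemC1 and 3.10 with Mcidas and had 0 counts in the GFP libraries. For Enpp2 the closest were Npas1 (0.943), Cdr2 (0.942), Il17d (0.922), Dact3 (0.884) and Jakmip1 (0.864), and none of these 5 passed the test in either comparison with the reporter. The entry matched to the symbol Jakmip1 has only 138 bases of exon.

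Markers of other cell types were set beside these results, since sorted cells from the forebrain can include other cells, and in bulk RNA a change in the number of cells of a type and a change in RNA per cell cannot be told apart. For all counts in this paragraph, the share of all tested genes called higher was 3.86% with GemC1 and 4.03% with Mcidas. Microglia and macrophage markers moved with the factors. Their summed level was 86.8 to 127 CPM with GemC1, 53.6 to 79.0 with Mcidas and 34.8 to 51.2 with the reporter; 10 of 17 tested rose with GemC1 (median log2 fold change 2.18) and 2 with Mcidas (C1qb and P2ry12, median 1.27). Without GemC1 replicate 1, GFP replicate 2 or GFP replicate 3 the GemC1 count was 4, and with Mcidas it was 3 without Mcidas replicate 1 and 1 without GemC1 replicate 1 or 3, Mcidas replicate 2 or 3, or GFP replicate 1 or 3. The multiciliated list also moved, with 24 of 28 tested genes rising in each comparison and a summed level of 1013 to 1179 CPM, 946 to 1796 CPM and 215 to 230 CPM in the GemC1, Mcidas and GFP libraries. Cajal-Retzius markers, of neurons born partly at the hem, summed to 120 to 182, 126 to 162 and 13.6 to 14.0 CPM, and Trp73 was the 1 of 6 tested that rose; its means of 150 and 135 CPM make up most of the sums with the factors, and the multiciliated list holds it too. The part of these in the Igf2 and Clic6 levels was not tested.

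Igf2 is also known from meninges and vessels, whose summed markers overlapped between the 3 groups. Meningeal markers summed to 175 to 208 CPM with GemC1, 137 to 203 with Mcidas and 187 to 210 with the reporter. Of 8 tested, Fbln1 rose with GemC1 (log2 fold change 0.67, adjusted p = 0.0123, and 0.0663 without GFP replicate 2). The median log2 fold change of the 8 was 0.40 with GemC1, with 7 positive, and 0.20 with Mcidas, with 5 positive. Over all tested genes the median was 0.00 and -0.03, and 3.86% were higher with GemC1 and 4.03% with Mcidas. With Mcidas 0 passed by edgeR or DESeq2, with 1 under an unadjusted p of 0.05, and 1 fell without Mcidas replicate 1. Of the 19 meningeal markers, 11 stayed under 1 CPM in every library. Among them Foxc2, Aldh1a2 and Slc22a6 had 0 counts in all libraries, and Dcn had 1. Pericyte and smooth muscle markers summed to 24.1 to 34.1, 20.9 to 38.6 and 22.6 to 31.3 CPM, with 0 of 9 passing by edgeR in either comparison, 2 and 0 under an unadjusted p of 0.05, and Vtn called by DESeq2 with GemC1; 1 was lower with GemC1 without GemC1 replicate 2 or 3 or Mcidas replicate 3. Endothelial markers summed to 101 to 112, 94.0 to 107 and 104 to 113 CPM, with 0 of 10 passing by edgeR, 2 and 1 under an unadjusted p of 0.05, and Kdr called by DESeq2 with GemC1. Erythroid markers ranged from 2.33 to 28.8 CPM, both ends being Mcidas libraries. Median log2 fold changes with GemC1 and Mcidas were -0.57 and 0.15 for pericyte and smooth muscle markers. They were -0.13 and 0.13 for endothelial and -0.79 and -0.68 for erythroid markers.

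**Figure D4:**
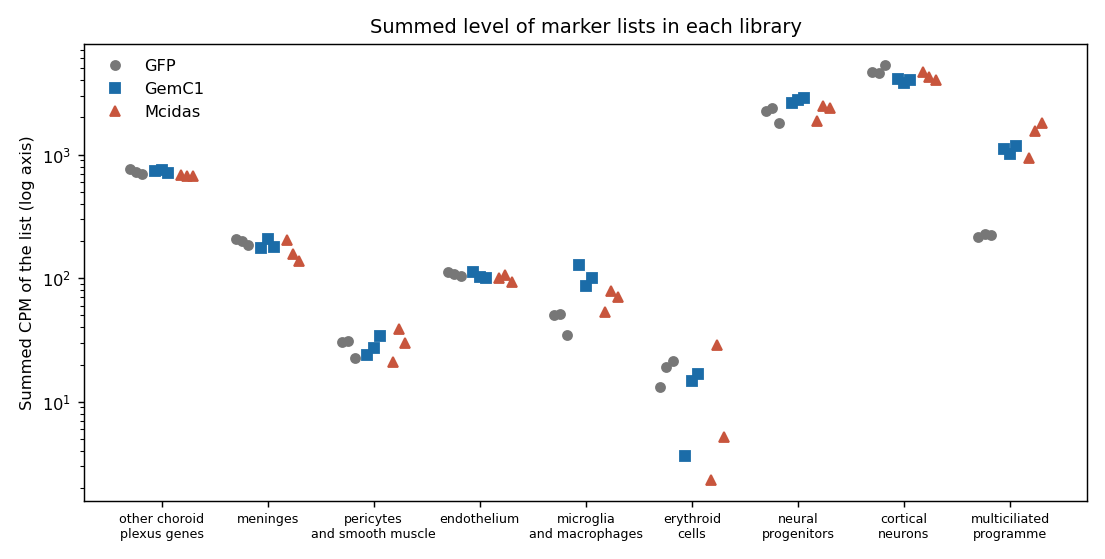
Summed CPM of each marker list in each library on a log axis, with circles for GFP, squares for GemC1 and triangles for Mcidas. The multiciliated and microglial sums are higher in the factor libraries than in the GFP libraries, and the sums of other choroid plexus genes, meninges and endothelium lie close together in the 3 groups.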

How the data were processed

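RNA of 9 libraries had been amplified with SMART-Seq v4 from 10 ng and read for 75 bp, per the labels' protocols. The authors deposited unnormalised read counts for each Ensembl gene, made with tools that the submitters' processing notes name without role or order: STAR 2.5.2b, HTSeq 0.5.3, DESeq2 1.8.1 and build mm10. For the annotation and strand setting, the value is not given in the sources used here. Of 53379 identifiers 53274 were matched to GENCODE M21. Genes were filtered with filterByExpr (minimum count 10, minimum total 15), which left 19572, scaled by TMM (factors 0.96 to 1.03) and tested in a single edgeR 4.0.16 quasi-likelihood fit of all 9 libraries with group as the only term (R 4.3.3, two-sided, Benjamini-Hochberg, threshold 0.05). The script was tested on simulated data. SE comes from the quasi-likelihood F; levels are mean ± SD of CPM.

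The members and gene lists were chosen with earlier results of these data known. Named genes are the members, up to 5 called genes per list and comparison, and a few genes named by symbol. Added to these are the 5 genes most like each of Igf2, Clic6 and Enpp2, the only members ranked. Other genes named were chosen after their values were seen. Of 314 list symbols 308 matched. Promoters are RefSeq's for GRCm38.p6. P-values measure only the spread between these samples, which may be technical. Intervals and floors cover counting error only, because the amplified reads carry no molecular identifiers. The Mcidas tables carry another year code than the other tables; if that marks a batch, batch and group cannot be told apart for Mcidas. Alternatives were DESeq2 1.42.0 and its size factors, 2 other low-count filters, a replicate block, leaving mitochondrial, globin and transgene reads out, fitting only the groups compared, a 2-fold minimum and leaving out each library.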

Additional observations from a re-analysis of the deposited data

How the results depend on the processing

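Igf2 and Clic6 were higher in both factor groups than in GFP under each alternative that gave a value. Without the low-count filter, however, Clic6 was not past the threshold in either comparison (5.67 and 5.62). With only the Mcidas and GFP libraries fitted, Igf2 did not pass the low-count filter and gave no value. Igf2 ranged without 1 library from 4.51 to 5.02 (GemC1) and 3.59 to 4.68 (Mcidas) on the log2 scale, and Clic6 from 5.05 to 10.45 and 5.0 to 10.40, the highest without GFP replicate 3. Kcnj13 ranged from -0.09 to 1.02 and 0.37 to 1.54. Low counts limit the other 6 members.

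Calls depended on tool and filter. Genes higher with GemC1 were 756, 1154 by DESeq2 and 443 to 877 without 1 library (fewest without GFP replicate 3). Genes lower with GemC1 were 259, 557 without the low-count filter, 663 by DESeq2, 40 with the 2-fold minimum and 32 to 267 without 1 library. Genes lower with Mcidas were 64, then 123, 127 and 16 under the same 3 settings and 29 to 99 without 1 library; those higher ran from 557 to 951. Genes higher in GemC1 than Mcidas were 3, 66 without the filter, 196 by DESeq2 and 3 to 5 without 1 library. Genes lower were 7, 129 without the filter, 298 by DESeq2, 4 with the 2-fold minimum, 2 with only these groups, 3 without mitochondrial, globin and transgene counts, and 1 to 8 without 1 library.

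Among the other choroid plexus genes, those higher with GemC1 were 1 (0 to 2 without 1 library) and those lower 0, but 1 without the filter, 1 with only these groups and 1 by DESeq2 (0 to 1 without 1 library). With Mcidas, 1 was higher, 0 with only these groups or the 2-fold minimum, 3 by DESeq2 and 0 to 2 without 1 library; 2 were lower, 1 with the 2-fold minimum and 0 to 2 without 1 library. Between the factors 0 were higher, but 1 without the filter and 1 by DESeq2.

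Same-numbered samples did not deviate together (correlations from -0.074 to 0.046), so no pairing by number was seen. Whether same-numbered samples share a litter is not given in the labels. With the replicate number as a block, 147 genes were lower with GemC1, 3 were lower in GemC1 than Mcidas, and 0 choroid plexus genes were higher with Mcidas.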
